A study of Mus musculus with 6 samples.

Results

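The antioxidant and NRF2 pathway genes described here are 32 named genes, all found once each by symbol among the 55487 rows of the deposited gene table. They were measured by RNA sequencing of LSK cells, the bone marrow fraction without lineage markers and with Sca-1 and Kit that contains stem and multipotent progenitor cells. Each genotype had 3 libraries: wild-type littermates, and Mc5r-/- mice, which lack the melanocortin 5 receptor, a G-protein-coupled receptor for melanocortin peptides. The series' design text says that the mice of both genotypes had been irradiated; dose, time after irradiation, age, strain and the extent of the deletion are not given in the sources used here. No unirradiated library was analysed here, and the only comparison is between the genotypes. The labels do not say how many mice stand behind a library, so SDs and p-values describe how these libraries vary, part or all of which may be technical.

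NRF2, the product of Nfe2l2, is a transcription factor that KEAP1 holds in the cytoplasm and passes to a ubiquitin ligase for degradation. Oxidants and electrophiles modify KEAP1, NRF2 then accumulates, pairs with small MAF proteins and binds antioxidant response elements near genes for glutathione synthesis, thioredoxin reduction, quinone detoxification and haem breakdown. Superoxide dismutases turn superoxide into hydrogen peroxide, which catalase, peroxiredoxins and glutathione peroxidases remove. In haematopoietic stem cells, low levels of reactive oxygen species are associated with quiescence, and irradiation raises them.

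The core of the antioxidant response element was searched in RefSeq promoter windows of GRCm38.p6, which run from 250 bases before to 50 bases after a start site. The letters were TGACNNNGC, on both strands. Of the 32 genes, 27 had at least 1 window, and 8 of these (29.6%) held the letters, beside 3781 of all 27025 genes with a window (13.99%) and 4071 of all 32851 windows (12.4%). Hmox1, Gclc, Gsr, Prdx6 and Msra had no window and were not searched. The matches are shown because they lie at genes of each outcome described below: Nfe2l2 and Mgst1 were lower in Mc5r-/-, Txnrd1 was higher, and Gclm, Prdx1, Srxn1, Sod1 and Gstm5 did not pass the test. Capitals mark the match, printed on the strand that reads as the searched letters, with 10 bases on either side.
Nfe2l2, chr2:75704885-75704913, minus strand: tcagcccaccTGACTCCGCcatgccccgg
Gclm, chr3:122245413-122245441, minus strand: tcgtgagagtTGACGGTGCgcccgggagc
Txnrd1, chr10:82859104-82859132, minus strand: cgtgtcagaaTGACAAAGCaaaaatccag
Prdx1, chr4:116685456-116685484, minus strand: ctacgggggaTGACTCAGCgctttccctg
Srxn1, chr2:152105542-152105570, minus strand: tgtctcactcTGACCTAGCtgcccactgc
Sod1, chr16:90220696-90220724, minus strand: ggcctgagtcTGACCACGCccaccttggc
Mgst1, chr6:138140461-138140489, minus strand: ccccgcctccTGACCGTGCcaagccccgc
Gstm5, chr3:107895802-107895830, plus strand: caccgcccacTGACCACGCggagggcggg

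The Prdx1 match also contains TGACTCA, the letters of an AP-1 site, so these patterns overlap there. The matches are descriptions of sequence, and a promoter without one, such as that of Nqo1, only lacks these letters in this window.

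The libraries held 13983016 to 14953169 gene counts. Mc5r had 181, 157 and 198 counts in wild type and 0, 0 and 1 in Mc5r-/- (replicates 1, 2 and 3). Xist had 1224, 1167 and 1281 counts in wild type and 0, 2 and 2 in Mc5r-/-, while 4 Y-linked genes had between 160 and 1196 counts in every library, of which Kdm5d passed as higher (1.17-fold, edgeR adjusted p = 0.0374) and the others did not pass. The labels used here do not give the sex of the mice, so a difference in sex make-up between the genotypes cannot be told apart from the genotype in any comparison here. Of 9 LSK marker genes tested, 6 were higher, 1 was lower, and none was at 0. Transcripts of other cell types were present in both genotypes and also differed. Several marker lists are set beside members below as description, and not every list moved in the direction of the member. Of lists not set beside a member, B cell markers were 2 higher and 4 lower of 8 tested. T and NK cell markers were 3 higher and 1 lower of 6 tested, and megakaryocyte and platelet markers 0 higher and 1 lower of 3 tested. In bulk RNA, fewer cells of a type and less RNA per cell cannot be told apart.

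Of the 32 members, 5 were higher and 9 were lower in Mc5r-/-, and 18 did not pass (edgeR quasi-likelihood test, Benjamini-Hochberg adjusted p under 0.05 over 15257 genes). All 32 passed the filter on low counts. Over all genes tested, 16.8% were higher and 16.1% lower (32.9% either way), beside 15.6% and 28.1% of the members. The median log2 fold change was -0.019 over the members and -0.0047 over all genes tested, and the median absolute log2 fold change was 0.16 and 0.18. The values of the genotypes did not overlap for 17 members (53.1%), beside 49.8% of all genes tested. The members that fell were Nfe2l2 itself, the glutathione reductase gene Gsr, the peroxiredoxin genes Prdx3 and Prdx5, the peroxidase gene Gpx4, the mitochondrial dismutase gene Sod2 and the transferase genes Mgst1, Mgst2 and Gstm1. Those that rose were Nqo1, Hmox1, Txnrd1, Prdx4 and Gpx7. With DESeq2, 2 members were higher and 8 lower, beside 1655 higher and 1446 lower of all 15252 genes tested with it. Without Mc5r-/- replicate 2 or replicate 3 the edgeR test called 3 members higher. Over all genes it then called 2100 of 15512 and 2113 of 15527 higher.

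**Figure D1:**
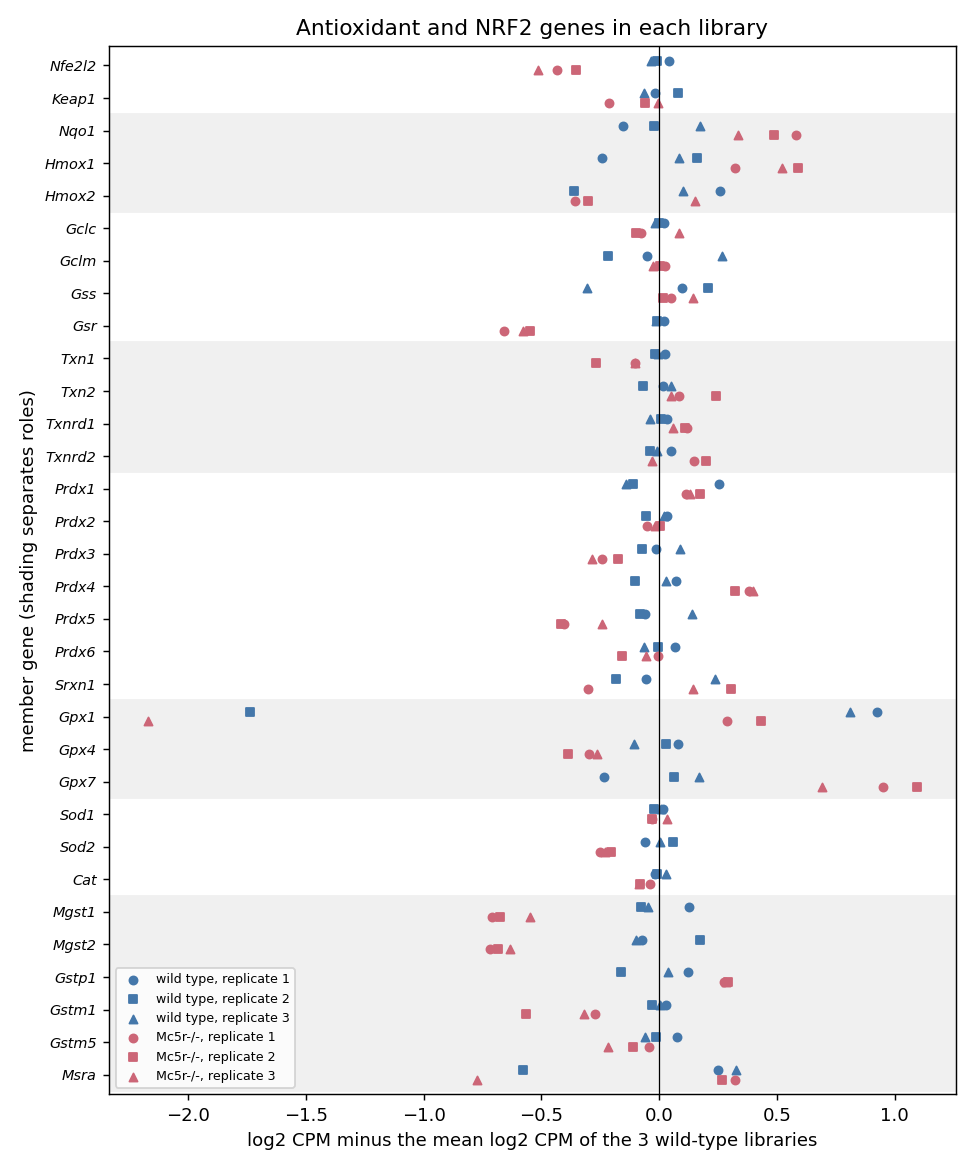
Each row is a member gene and each point a library: the x axis gives its log2 CPM (a gene's counts scaled to a common library total) minus the mean log2 CPM of the wild-type libraries, blue for wild type and red for Mc5r-/-, with a marker for each replicate number. Gsr, Mgst1 and Mgst2 have all Mc5r-/- points to the left of all wild-type points, while Gpx1 and Msra have wild-type replicate 2 and Mc5r-/- replicate 3 far to the left.

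**Figure D2:**
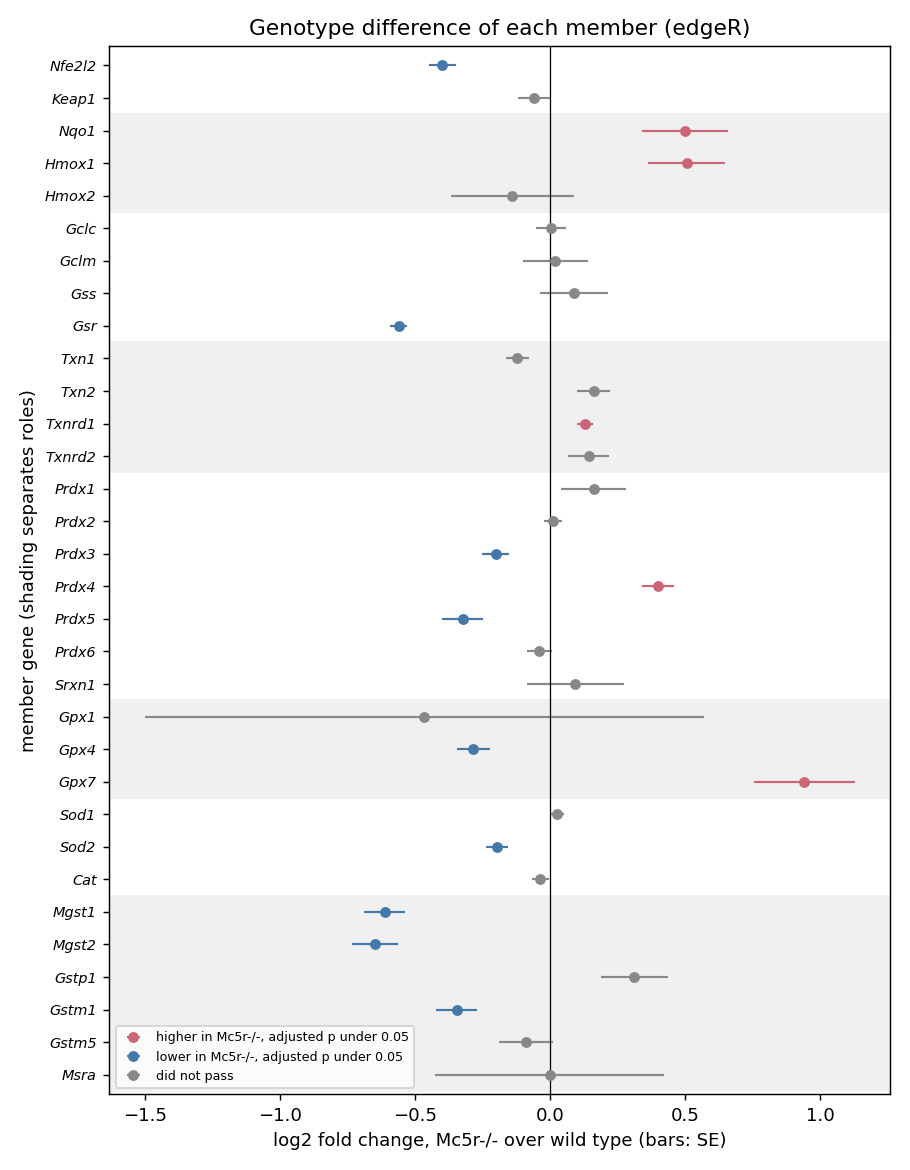
Points give the fitted log2 fold change of each member, Mc5r-/- over wild type, and bars its SE. The 9 lower genes are blue, the 5 higher genes red and the 18 that did not pass grey; Gpx1 has the widest bar (1.04).

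The gene for the pathway's transcription factor was lower in Mc5r-/-. Nfe2l2 (chr2:75675513-75704641, minus strand; GRCm38, as are all gene positions here) had 77.6, 74.9 and 73.5 CPM in the wild-type libraries and 55.7, 59.0 and 52.7 CPM in the Mc5r-/- libraries. All Mc5r-/- values lay below all wild-type values. The fall was 1.32-fold, a log2 fold change of -0.40 ± 0.051 SE (edgeR adjusted p = 0.000604). The gene for its inhibitor, Keap1, had 79.4, 85.0 and 76.9 CPM in wild type and 69.3, 77.1 and 80.1 CPM in Mc5r-/-. These ranges overlapped, and Keap1 did not pass (log2 fold change -0.058 ± 0.061 SE, edgeR adjusted p = 0.512).

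Of the genes for quinone and haem detoxification, Nqo1 and Hmox1 rose, at low levels. Nqo1 (chr8:107388225-107403206, minus strand), which encodes a quinone reductase and is a widely used readout of NRF2, had 32, 35 and 40 counts (2.14, 2.34 and 2.68 CPM) in wild type and 50, 47 and 42 counts (3.56, 3.34 and 3.00 CPM) in Mc5r-/-. Each Mc5r-/- value was above each wild-type value, a rise of 1.41-fold (log2 fold change 0.50 ± 0.16 SE, edgeR adjusted p = 0.0426). Its call rests on few counts and was lost in 9 of 13 alternative analyses, among them DESeq2 (adjusted p = 0.275), the replicate block (edgeR adjusted p = 0.0847) and the omission of any library other than wild-type replicate 3. Hmox1 (chr8:75093621-75100589, plus strand) encodes the stress-inducible haem oxygenase, which macrophages that clear red cells also carry at high levels. It had 56, 74 and 70 counts (3.75, 4.96 and 4.70 CPM) in wild type and 78, 94 and 89 counts (5.55, 6.68 and 6.36 CPM) in Mc5r-/-. The ranges did not overlap, and the rise was 1.42-fold (log2 fold change 0.51 ± 0.14 SE, edgeR adjusted p = 0.0270); the call was lost with DESeq2 (adjusted p = 0.123) and on omission of replicate 1 or 3 of wild type or 2 or 3 of Mc5r-/- (edgeR adjusted p between 0.0509 and 0.0864).

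Erythroid markers were higher beside Hmox1, and most monocyte and macrophage markers were lower. Of 10 erythroid markers tested, 9 were higher and none lower, and their summed level was 28.5 to 29.8 CPM in wild type and 175.2 to 175.7 CPM in Mc5r-/-. Of 9 monocyte and macrophage markers tested, 1 was higher and 6 were lower, with a summed level of 549 to 639 CPM in wild type and 379.7 to 428 CPM in Mc5r-/-; none of the markers was at 0 in a genotype. The log2 fold changes of the 9 tested ran from -1.05 to 2.22, and 3 of them lay above 0. Genes of that list found in macrophages that clear red cells were named after their values were seen. Slc40a1 (1.63-fold), Adgre1 (1.65-fold) and Vcam1 (1.15-fold) were lower (edgeR adjusted p = 0.000686, 0.0158 and 0.0319). Cd5l, at 0, 1 and 0 counts in wild type and 9, 3 and 6 in Mc5r-/-, and Spic, at 3, 3 and 3 in wild type and 9, 10 and 5 in Mc5r-/-, were too low to be tested. The part of these cells in the Hmox1 result was not tested.

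Hmox2, which encodes the constitutive haem oxygenase, had 82.2, 53.6 and 73.9 CPM in wild type and 53.6, 55.8 and 76.4 CPM in Mc5r-/-. The genotypes overlapped, with wild-type replicate 2 as low as the lower Mc5r-/- libraries, and Hmox2 did not pass (log2 fold change -0.14 ± 0.23 SE, edgeR adjusted p = 0.694). Of its annotated exonic bases, 40.2% are shared with Cdip1 on the opposite strand, whose counts were 224, 435 and 253 in wild type and 414, 434 and 475 in Mc5r-/-. Wild-type replicate 2, the lowest wild-type library for Hmox2, was the highest for Cdip1, whereas Mc5r-/- replicate 1 was the lowest Mc5r-/- library for both. The sources used here do not state whether counting used strand, so reads of the pair may not have been told apart. Exonic bases of Keap1, Gss, Txnrd2, Prdx2 and Gstm5 were also shared with genes on the opposite strand.

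In the glutathione branch, synthesis genes did not pass and the reductase gene fell. Gclc and Gclm encode the catalytic and the modifier subunit of glutamate-cysteine ligase, the rate-limiting enzyme of glutathione synthesis, and Gss the synthetase of the following step. Gclc had 53.8, 53.1 and 52.3 CPM in wild type and 50.2, 49.5 and 56.3 CPM in Mc5r-/-, overlapping ranges with a log2 fold change of 0.0049 ± 0.055 SE (edgeR adjusted p = 0.958). Gclm had a log2 fold change of 0.020 ± 0.12 SE and Gss of 0.089 ± 0.13 SE, with edgeR adjusted p of 0.922 and 0.641. Wild-type replicate 3 was the highest library for Gclm (74.9 CPM) and the lowest for Gss (19.3 CPM). A pseudogene on the same strand, Gm6061, shares 3.88% of the exonic bases of Gclm and had 1481 to 2144 counts per library. Gclm itself had 802 to 1117. The share of bases does not bound how many reads of the pair were mixed, so the Gclm values are uncertain.

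Gsr (chr8:33652523-33698163, plus strand), whose enzyme returns oxidised glutathione to its reduced form with NADPH, had the smallest adjusted p of the 32 members. It had 458, 448 and 446 CPM in wild type and 285, 308 and 302 CPM in Mc5r-/-. The lowest wild-type library stood well above the highest Mc5r-/- library, and the SDs were small beside the difference (451 ± 6.16 against 299 ± 11.7 CPM, SD, n = 3 each). The fall was 1.48-fold (log2 fold change -0.56 ± 0.030 SE, edgeR adjusted p = 3.12e-06). The log2 fold change lay between -0.59 and -0.53 in the 13 alternatives.

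Of the 4 thioredoxin system genes, Txnrd1 rose and the others did not pass. Txn1 encodes cytosolic thioredoxin and had 247, 240.0 and 242 CPM in wild type and 226, 202 and 226 CPM in Mc5r-/-. Every Mc5r-/- value was below every wild-type value, but the gene did not pass (log2 fold change -0.12 ± 0.043 SE, edgeR adjusted p = 0.0643). It passed with the replicate block (edgeR adjusted p = 0.0431) and without Mc5r-/- replicate 1 (edgeR adjusted p = 0.0444), over a range of 0.0431 to 0.239 in the alternatives. Txnrd1, the gene of the cytosolic thioredoxin reductase, had 214, 210.2 and 203 CPM in wild type and 227, 225 and 217 CPM in Mc5r-/-. The ranges were close without overlapping, and Txnrd1 rose 1.09-fold (log2 fold change 0.13 ± 0.030 SE, edgeR adjusted p = 0.0117). DESeq2 did not call it (adjusted p = 0.1003). The mitochondrial counterparts did not pass: Txn2 had a log2 fold change of 0.16 ± 0.060 SE and Txnrd2 of 0.14 ± 0.077 SE, with edgeR adjusted p of 0.0736 and 0.194.

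The 6 peroxiredoxin genes, whose products reduce peroxides with a reactive cysteine, did not move together: 1 rose, 2 fell and 3 did not pass. Prdx4 (chrX:155323918-155340754, minus strand) encodes the peroxiredoxin of the endoplasmic reticulum. It had 37.0, 32.8 and 35.96 CPM in wild type and 45.9, 44.0 and 46.4 CPM in Mc5r-/-. All Mc5r-/- libraries were higher, and the rise was 1.32-fold (log2 fold change 0.40 ± 0.059 SE, edgeR adjusted p = 0.00122). Plasma cell markers moved with Prdx4, which secretory cells hold at high levels: of 10 tested, 9 were higher and none lower, with a summed level of 11378 to 11450 CPM in wild type and 35590 to 38025 CPM in Mc5r-/-, and none at 0. Prdx4 is also X-linked, and the Xist counts given above differed between the genotypes. The part of either in the Prdx4 result was not tested.

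Prdx3 and Prdx5, whose products work in mitochondria, fell. Prdx3, whose product is confined to mitochondria, had 91.1, 87.5 and 97.7 CPM in wild type and 77.7, 81.4 and 75.6 CPM in Mc5r-/-, 1.15-fold lower (edgeR adjusted p = 0.0156). Its call was lost with DESeq2 (adjusted p = 0.0670) and without Mc5r-/- replicate 3 (edgeR adjusted p = 0.0531). Prdx5, found in mitochondria, peroxisomes and cytosol, had 175, 172 and 200.4 CPM in wild type and 137, 136 and 153 CPM in Mc5r-/-, 1.25-fold lower (edgeR adjusted p = 0.0200). The genotypes did not overlap for either gene, and the highest library of each genotype for Prdx5 was replicate 3. Without Mc5r-/- replicate 1 or 2 the edgeR adjusted p of Prdx5 was 0.0753 and 0.0757. Trmt112 shares 19.1% of the exonic bases of Prdx5 on the opposite strand, with 181 to 216 counts per library.

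Prdx1, Prdx2 and Prdx6 encode cytosolic peroxiredoxins. Prdx1 had 198, 154 and 151 CPM in wild type and 179.7, 187 and 182 CPM in Mc5r-/-. Wild-type replicate 1 lay above every other library, and Prdx1 did not pass (log2 fold change 0.16 ± 0.12 SE, edgeR adjusted p = 0.371); without that library the log2 fold change was 0.30 (edgeR adjusted p = 0.000636). Prdx2, the main peroxiredoxin of red cells, had 156, 146 and 155 CPM in wild type and 147, 153 and 150.3 CPM in Mc5r-/-, with a log2 fold change of 0.012 ± 0.033 SE (edgeR adjusted p = 0.822), beside the higher erythroid markers given above. Junb, on the opposite strand, shares 5.67% of the exonic bases of Prdx2. It had 21966 to 23489 counts per library, beside 2066 to 2333 for Prdx2. Reads of this pair may not have been told apart, so the Prdx2 values are uncertain. Prdx6 had a log2 fold change of -0.039 ± 0.048 SE (edgeR adjusted p = 0.579). Srxn1, the gene of sulfiredoxin, which restores overoxidised peroxiredoxins and is an NRF2 target, had 82, 75 and 100 counts in wild type and 65, 99 and 88 in Mc5r-/- and did not pass (log2 fold change 0.094 ± 0.18 SE, edgeR adjusted p = 0.732).

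Among the members, GENCODE M21 annotates a selenocysteine codon in Gpx1, Gpx4, Txnrd1 and Txnrd2. A selenocysteine is inserted at an in-frame TGA, otherwise a stop codon, when a specialised elongation factor and selenium are at hand. The codon (in capitals, coding strand) is shown with up to 12 bases on either side within the coding sequence, because these members had unlike outcomes: Gpx4 fell, Txnrd1 rose, and Gpx1 and Txnrd2 did not pass.
Gpx1, chr9:108339439-108339465, plus strand: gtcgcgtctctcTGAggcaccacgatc
Gpx4, chr10:80054725-80054751, plus strand: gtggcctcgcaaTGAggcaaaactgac
Txnrd1, chr10:82896025-82896045, plus strand: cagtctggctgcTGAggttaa
Txnrd2, chr16:18477760-18477780, plus strand: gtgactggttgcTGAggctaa

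In the peroxidases the codon was followed by many more: it was codon 47 of 202 in the annotated Gpx1 coding sequence, stop included. In both reductases 1 codon stood between it and the stop.

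Gpx1 (chr9:108338903-108340343, plus strand), the gene of the most abundant cytosolic glutathione peroxidase, had 16505, 2604 and 15182 counts in the wild-type libraries and 9979, 11033 and 1804 in the Mc5r-/- libraries, or 1104, 174 and 1019 CPM and 710.0, 784 and 129 CPM. Wild-type replicate 2 and Mc5r-/- replicate 3 stood far below the others: the median CPM of the genotype was 5.84 times that of the low library in wild type and 5.50 times in Mc5r-/-. Within a genotype the highest and lowest library differed 6.33-fold in wild type and 6.08-fold in Mc5r-/-. The genotypes could not be separated (log2 fold change -0.47 ± 1.04 SE, edgeR adjusted p = 0.780). The fitted log2 fold change ran from -0.94 without wild-type replicate 2 to 0.0010 without Mc5r-/- replicate 3. With both low libraries left out it was -0.47 (edgeR adjusted p = 0.0378), which is a description only, since these libraries were chosen by their Gpx1 values.

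Total counts differed little between libraries, as given above. Genes next to Gpx1 did not share its spread. Rhoa, the upstream neighbour, had 7143, 7064 and 7069 counts in wild type and 6090, 5834 and 5844 in Mc5r-/-, and Usp4, downstream, had 1609, 1687 and 1638 and 1307, 1332 and 1416. No other annotated gene shared exonic bases with Gpx1. Among 10784 genes with a mean of at least 100 counts, Gpx1 was the only one at or below 1/2 of its genotype's median CPM in both of these libraries. A departure of at least 2 times from the genotype's median in some library was seen in 250 of them (2.32%), with 27 to 42 low genes and 15 to 27 high genes per library. The genes furthest below their median in either of these libraries were Gm25951, Gm12992, Gm43951, Gm48909 and Atxn1l; Atxn1l had 548, 561 and 583 counts in wild type and 447, 445 and 52 in Mc5r-/-. The other such member was Msra, the gene of a methionine sulfoxide reductase, with 958, 538 and 1007 counts in wild type and 945, 912 and 440 in Mc5r-/-. Its lowest libraries were the same 2, at 0.562 of the median CPM in wild-type replicate 2, which did not reach the 2-fold mark, and 0.486 in Mc5r-/- replicate 3; Msra did not pass (log2 fold change -0.0014 ± 0.42 SE, edgeR adjusted p = 0.998).

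**Figure D3:**
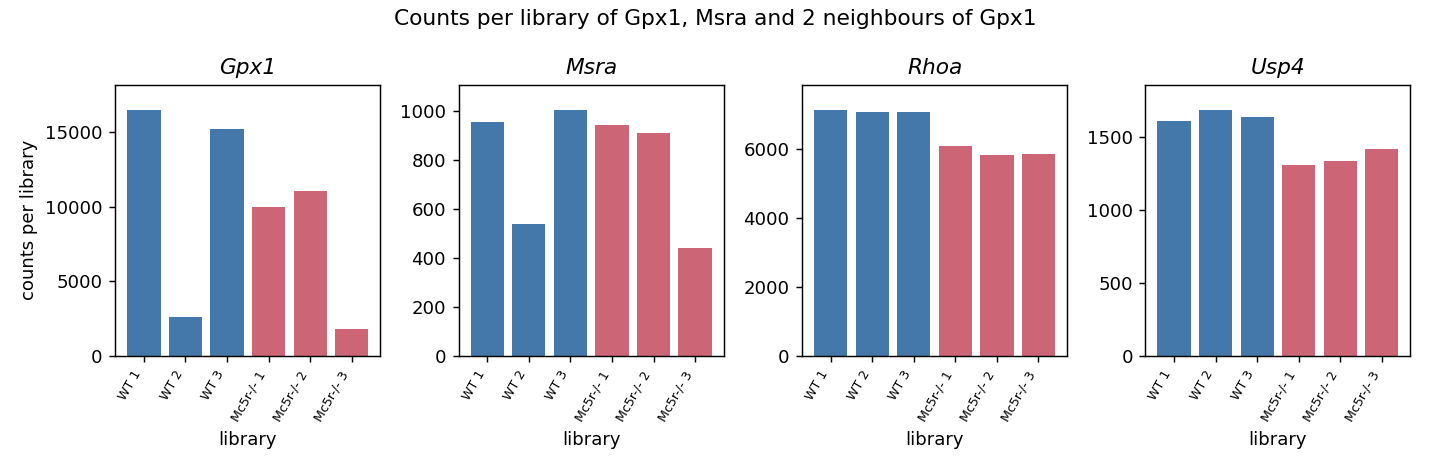
Bars give deposited counts per library for Gpx1, Msra and the neighbours Rhoa and Usp4, blue for wild type (WT) and red for Mc5r-/-, each panel with its own axis from 0. Gpx1 has 2604 counts in wild-type replicate 2 and 1804 in Mc5r-/- replicate 3, where Msra has 538 and 440, while Rhoa and Usp4 hold no such low library.

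The other glutathione peroxidase genes moved in opposite directions. Gpx4 (chr10:80047166-80056439, plus strand), whose product reduces lipid peroxides in membranes and restrains ferroptosis, had 57.0, 55.1 and 50.1 CPM in wild type and 43.8, 41.3 and 44.9 CPM in Mc5r-/-. The ranges did not overlap, and the fall was 1.22-fold (log2 fold change -0.28 ± 0.061 SE, edgeR adjusted p = 0.00791). Gpx7 (chr4:108400390-108406961, minus strand), which encodes a peroxidase of the endoplasmic reticulum without selenocysteine, had 22, 27 and 29 counts (1.47, 1.81 and 1.95 CPM) in wild type and 47, 52 and 39 counts (3.34, 3.69 and 2.79 CPM) in Mc5r-/-. Every Mc5r-/- library was higher. The rise of 1.92-fold (log2 fold change 0.94 ± 0.19 SE, edgeR adjusted p = 0.00558) was the largest fitted change among the members, at one of the lowest levels. Endothelial and stromal markers, at a summed 101.4 to 105.6 CPM in wild type and 106.3 to 113.6 CPM in Mc5r-/-, were 3 higher and none lower of 6 tested, with Lepr at 0 in every library. The log2 fold changes of the 6 ran from -1.13 to 2.17, and 2 of them lay below 0. The part of these markers in the Gpx7 result was not tested.

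Of the dismutase and catalase genes, only the mitochondrial dismutase gene passed. Sod2 had 83.3, 90.4 and 87.0 CPM in wild type and 73.0, 75.4 and 74.0 CPM in Mc5r-/-. The libraries did not overlap, and Sod2 fell 1.15-fold (log2 fold change -0.20 ± 0.040 SE, edgeR adjusted p = 0.00638). Sod1, for the cytosolic enzyme, had 168, 164 and 167 CPM in wild type and 163, 163 and 169.8 CPM in Mc5r-/-, overlapping ranges with a log2 fold change of 0.025 ± 0.027 SE (edgeR adjusted p = 0.519). Cat had 104, 105 and 107 CPM in wild type and 102, 99.4 and 99.0 CPM in Mc5r-/-. Its CPM ranges did not overlap, but the log2 fold change of -0.036 ± 0.031 SE did not pass (edgeR adjusted p = 0.423).

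Of the 5 glutathione transferase genes, Mgst1, Mgst2 and Gstm1 fell. Mgst1 (chr6:138140316-138156755, plus strand) encodes a microsomal enzyme that is both a transferase and a peroxidase, and had 36.7, 31.95 and 32.5 CPM in wild type and 20.6, 21.1 and 23.0 CPM in Mc5r-/-, 1.53-fold lower (log2 fold change -0.61 ± 0.076 SE, edgeR adjusted p = 0.000502). Mgst2 (chr3:51660360-51682677, plus strand), whose product can also make leukotriene C, had 26.7, 31.6 and 26.2 CPM in wild type and 17.1, 17.5 and 18.1 CPM in Mc5r-/-, 1.57-fold lower (log2 fold change -0.65 ± 0.087 SE, edgeR adjusted p = 0.000727). For both genes the highest Mc5r-/- library lay below the lowest wild-type library. Gstm1, the abundant mu-class gene, had 262, 252 and 257 CPM in wild type and 213, 174 and 206 CPM in Mc5r-/-, 1.27-fold lower (edgeR adjusted p = 0.0215). The Mc5r-/- libraries were less alike than the wild-type libraries, and the Gstm1 call was lost with no filter on low counts (edgeR adjusted p = 0.0512) and without any 1 wild-type library or Mc5r-/- replicate 3 (edgeR adjusted p between 0.0530 and 0.0744).

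Gstm5 and Gstp1 did not pass. Gstm5 had 127, 119 and 115 counts in wild type and 110, 105 and 97 in Mc5r-/- (log2 fold change -0.088 ± 0.100 SE, edgeR adjusted p = 0.573). Gstp1, for the pi-class enzyme, had 67, 55 and 63 counts in wild type and 70, 71 and 70 in Mc5r-/- (log2 fold change 0.31 ± 0.12 SE, edgeR adjusted p = 0.0891). Its close copy Gstp2 had 0, 22 and 32 and 21, 24 and 10 counts, so the split of reads between the copies is uncertain, as it may be among the mu-class genes.

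Most myeloid markers were lower beside the members that fell. Of 6 primary granule and promyelocyte markers, all 6 were lower, with a summed level of 14050 to 15066 CPM in wild type and 8918 to 9245 CPM in Mc5r-/-. Of 10 mature neutrophil markers, 6 were lower and 2 higher, at 4115 to 4396 and 3013 to 3061 CPM. Retnlg (1.54-fold) and Mmp8 (1.38-fold) were the 2 higher, while Lcn2 and Cxcr2 did not pass. Of 8 basophil and mast cell markers, 7 were lower and none higher, at 627 to 661 and 333 to 389 CPM. No marker of these lists was at 0 in a genotype. Their part in the falls of Gsr, Mgst1, Mgst2 and the other members was not tested.

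Levels by the deposited FPKM spanned a wide range. FPKM scales fragments by a length and the library total, and the lengths used are not stated in the sources used here. For some members they do not match the annotated exonic bases, so the FPKM order is not a firm order per length. Wild-type Gpx1, with 1441 exonic bases in GENCODE M21, was at 766 CPM and 224 FPKM. Wild-type Txn1, with 1051, was at 243 CPM and 231 FPKM. By FPKM, the highest mean over the 6 libraries was that of Txn1, at 231 ± 3.48 FPKM in wild type and 208 ± 13.4 FPKM in Mc5r-/- (SD, n = 3 each). Gpx1 followed at 224 ± 151 and 159 ± 105 FPKM, an order its spread does not fix. Gsr, at 152 ± 2.07 and 100.3 ± 3.93 FPKM, Gstm1, at 89.6 ± 1.79 and 68.8 ± 7.29 FPKM, and Prdx3, at 62.3 ± 3.50 and 52.9 ± 1.99 FPKM, came next. Nfe2l2 was at 19.2 ± 0.524 and 14.2 ± 0.807 FPKM, and Keap1 at 8.68 ± 0.447 and 8.15 ± 0.602 FPKM. In CPM the mean of Keap1 was the higher, at 80.4 ± 4.15 in wild type and 75.5 ± 5.58 in Mc5r-/-. Nfe2l2 was at 75.3 ± 2.06 and 55.8 ± 3.16 CPM. The exonic bases are 4693 for Keap1 and 3796 for Nfe2l2, so their order per length is not settled by the deposited FPKM. The lowest by deposited FPKM were Hmox1, Nqo1, Srxn1, Gpx7 and Gstp1, with Gstp1 at 0.913 ± 0.0899 and 1.11 ± 0.00702 FPKM. Gstp1 and Nqo1 have close numbers of exonic bases (1548 and 1553), but the mean wild-type CPM of Gstp1 was higher (4.13 against 2.39). The last place of Gstp1 is therefore not settled by the deposited FPKM. The order of Nqo1 and Srxn1 in wild type, at 1.54 ± 0.177 and 1.58 ± 0.240 FPKM, lay within their SDs. Of the 5 genes that rose, Nqo1, Hmox1 and Gpx7 were among these 5 lowest.

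**Figure D4:**
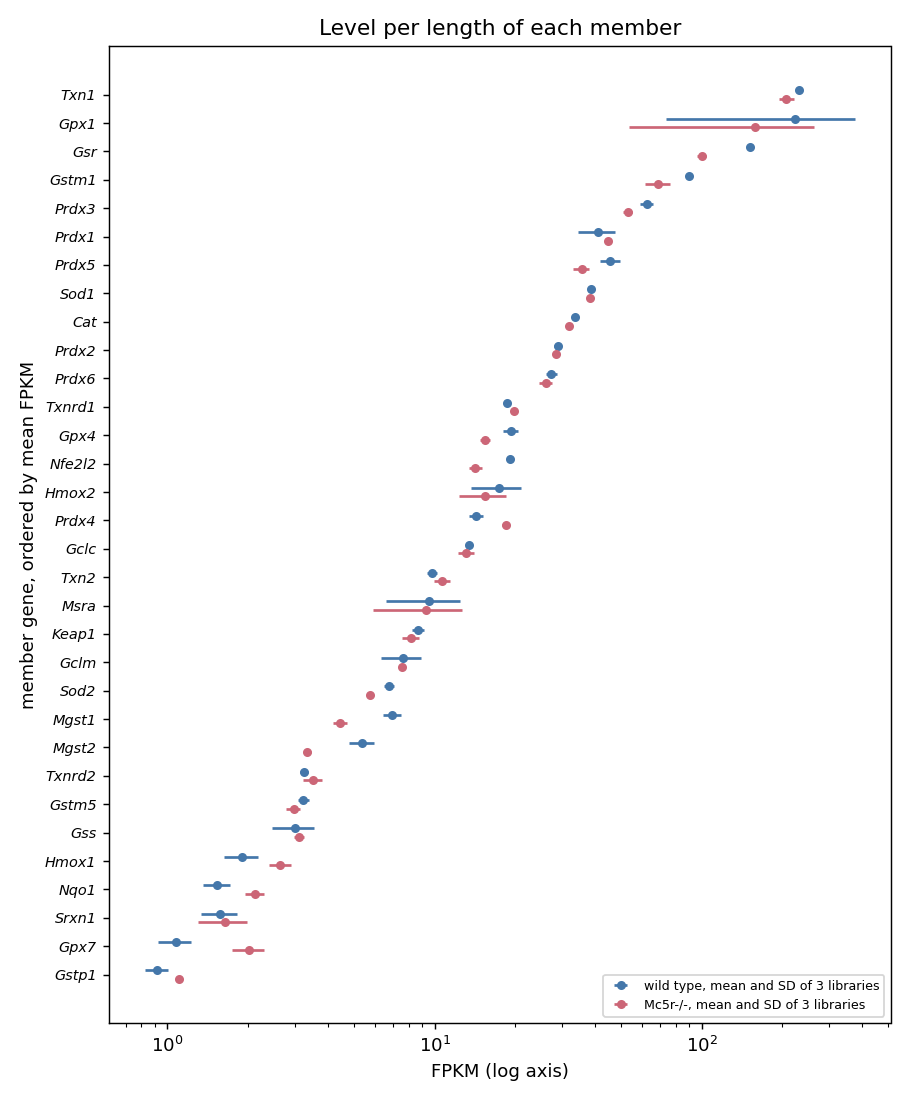
Points give the mean FPKM of each member in wild type (blue) and Mc5r-/- (red) on a log axis, and bars the SD over 3 libraries, with genes ordered by mean FPKM. Txn1 and Gpx1 are at the top, with the bars of Gpx1 (SD 151 and 105 FPKM) wider than those of its neighbours, and Gstp1 is at the bottom. This order follows the deposited FPKM, whose lengths are not stated and do not match the annotated exonic bases for some members. Gstp1 is one of these members, so its place at the bottom is not settled.

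Related genes outside the members were taken from 5 lists of 96 genes, of which 91 rows were tested. Of these, 7 (7.69%) were higher and 29 (31.9%) lower, beside 16.8% and 16.1% of all genes tested, with a median log2 fold change of -0.075. None of the 14 partners and degradation factors of NRF2 passed the edgeR test; 2 had an unadjusted p under 0.05, and DESeq2 called 0. Mafk, a small MAF partner, had 1946, 1969 and 1921 counts in wild type and 1704, 1638 and 1749 in Mc5r-/- (log2 fold change -0.075 ± 0.033 SE, edgeR adjusted p = 0.115). Bach1, which represses NRF2 targets, had a log2 fold change of 0.19 ± 0.073 SE and the ligase scaffold gene Cul3 of -0.0071 ± 0.030 SE (edgeR adjusted p = 0.0850 and 0.883); these 3 were chosen after their values were seen.

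Of 28 tested NRF2 target genes outside the members, 11 were lower and 1 was higher, with a median log2 fold change of -0.13. Of the 4 with the smallest p, all fell. Idh1, for cytosolic isocitrate dehydrogenase, went from 95.6 ± 0.813 to 59.2 ± 2.47 CPM (1.58-fold; SD, n = 3 each). The pentose phosphate genes Pgd, from 454 ± 17.2 to 328 ± 11.2 CPM, and G6pdx, from 190.1 ± 6.25 to 139 ± 2.18 CPM, fell 1.35-fold and 1.34-fold. Ptgr1, the gene of a prostaglandin reductase, went from 109 ± 3.68 to 69.0 ± 0.720 CPM (1.55-fold), and all 4 had an edgeR adjusted p of at most 3.16e-05. Slc7a11, the cystine importer that feeds glutathione synthesis, had 27, 50 and 41 counts in wild type and 18, 16 and 12 in Mc5r-/- (2.35-fold lower, edgeR adjusted p = 0.0115). The gene that rose was Gstm7 (1.35-fold, edgeR adjusted p = 0.0222); these last genes were named after their values were seen.

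Of 30 tested rows of other peroxide, thiol and superoxide genes, 4 were higher and 8 lower, with a median log2 fold change of -0.026. Gpx3, for the secreted glutathione peroxidase, fell 1.95-fold from 14.9 ± 0.190 to 7.48 ± 1.07 CPM, and Msrb1, for a methionine sulfoxide reductase with selenocysteine, fell 1.42-fold from 106 ± 3.17 to 72.7 ± 3.27 CPM (SD, n = 3 each). The nucleoredoxin gene Nxn (1.30-fold) and the glutaredoxin gene Glrx3 (1.17-fold) fell too, and these 4 had an edgeR adjusted p of at most 0.000812. Of 13 genes of selenoprotein synthesis and selenoproteins, 2 were higher and 4 lower; DESeq2 called 4 of the 13. Sephs2, which makes the selenium donor, fell 1.32-fold from 137 ± 2.68 to 102 ± 1.98 CPM, Selenof fell 1.28-fold and Selenoh 1.21-fold, while Selenow went up 1.45-fold, from 68.6 ± 3.95 to 97.3 ± 2.32 CPM (SD, n = 3 each; edgeR adjusted p of at most 0.00554).

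All 6 genes of the phagocyte NADPH oxidase, which makes superoxide, were lower by edgeR and 5 of them by DESeq2, with a median log2 fold change of -0.39. Cybb, for the catalytic subunit, went from 3034, 2958 and 2975 counts in wild type to 1932, 1802 and 1915 in Mc5r-/-, and Cyba, for its membrane partner, from 2066, 2059 and 2079 to 1442, 1307 and 1340. The falls were 1.46-fold for Cybb, 1.39-fold for Cyba and 1.29-fold for Ncf1, which encodes a cytosolic subunit (edgeR adjusted p of at most 4.44e-05). The genotypes did not overlap for any of the 6, where 49.8% of all genes tested had no overlap. Among the markers given above, the summed levels of the granule and neutrophil lists were lower too, and their part was not tested.

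**Figure D5:**
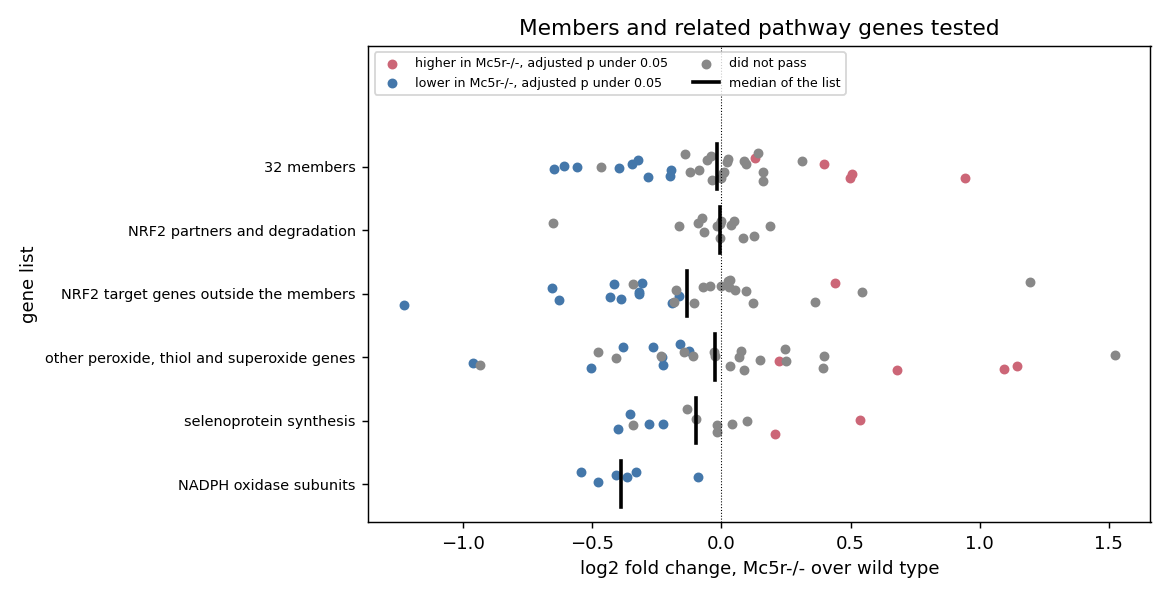
Each point is a tested gene at its fitted log2 fold change, Mc5r-/- over wild type, by list; red and blue mark genes that passed as higher or lower, grey those that did not, and a black bar the median of the list. The NADPH oxidase genes lie wholly to the left of 0, and the partners and degradation factors of NRF2 hold no coloured point.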

How the data were processed

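Poly-A RNA of LSK cells was sequenced in 3 wild-type and 3 Mc5r-/- libraries, paired-end and stranded, per the labels' protocols. The authors deposited 1 table of 55487 genes with whole-number counts per gene and FPKM values for each library. The submitters' processing notes list, without roles, the build GRCm38 and the tools HISAT2, StringTie, edgeR and CASAVA 1.8; the counting program, annotation and use of strand are not stated in the sources used here. Deposited FPKM was checked against the counts: over 10777 genes, 99.98% of the ratios of FPKM to count differed between libraries as the totals of gene counts do, within 0.001. This check compared libraries and did not check the gene lengths behind the FPKM. GENCODE M21 (GRCm38) held 55141 of the gene IDs, 54784 of them at the deposited position.

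Counts were tested in R 4.3.3 with edgeR 4.0.16: filterByExpr (minimum count 10, minimum total 15), TMM scaling, robust quasi-likelihood F-test of genotype, Benjamini-Hochberg adjustment over all 15257 genes tested and a threshold of 0.05. SEs were derived from the fold change and its F statistic. CPM divides by a library's total gene counts. It leaves out the TMM factors that the test used, 1.011 to 1.013 in wild type and 0.985 to 0.992 in Mc5r-/-. Statements that CPM values did or did not overlap therefore lack that scaling. The test was checked on simulated counts. It called 58 of 100 genes changed 1.5-fold, 84 of 100 changed 2-fold and 15 of 15057 unchanged genes. Far fewer genes were changed there than the 5023 of 15257 called in the data, and the adjustment depends on that share. These counts therefore do not give the sensitivity of the test in these data. A gene that did not pass may still differ. Alternatives were RLE scaling, DESeq2 1.42.0, no filter, a minimum of 1 CPM in at least 3 libraries, omission of each library, a block for replicate number, omission of immunoglobulin genes and, added after the data were seen, leaving out the 2 libraries low for Gpx1. The members and lists were chosen with earlier results of these data known. Named genes are all members and up to 4 called genes with the smallest p of each related list; others are marked, and 1 gene under this rule is not reported here. With 3 libraries per genotype no outlier test was made.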

Additional observations from a re-analysis of the deposited data

How the results depend on the processing

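Of the 14 members called, 7 kept their call and direction in all 13 alternatives: Gsr, Nfe2l2, Mgst1, Mgst2 and Gpx4 as lower, and Prdx4 and Gpx7 as higher. The call of Nqo1 was lost in 9 alternatives, of Hmox1 and Gstm1 in 6 each, of Prdx3 and Prdx5 in 2 each, and of Txnrd1 and Sod2 in 1 each. Of the 18 members not called, 14 were not called in any alternative; the others were Gpx1, Hmox2, Prdx1 and Txn1. With DESeq2 the calls over all genes were 1655 higher and 1446 lower, and 2 members were higher; the cause was not tested. Leaving out 1 library gave 3 to 4 members higher, with the lowest value without Mc5r-/- replicate 2 or 3, beside 2080 to 2124 genes higher over all tested. With wild-type replicate 2 and Mc5r-/- replicate 3 both left out, an alternative chosen after seeing the data, 3 members were higher and 9 lower, with fewer libraries in the fit. The replicate block, with 4 members higher and 10 lower and 2254 and 2148 genes over all, ended the call of Nqo1 and added that of Txn1. The labels do not say whether libraries with the same number shared a litter or a day. Over all genes tested, the correlations of their deviations were 0.00255, -0.0408 and -0.0240, and 0 of 6 libraries correlated best with its own number. No scaling moved the median of all genes by more than 0.0075 on the log2 scale. Depth limits the genes with the fewest counts, Gpx7, Nqo1, Gstp1, Hmox1 and Srxn1, whose counts were 22 to 100 per library.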

Other observations

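Among the related genes, 2 of glutathione turnover moved in opposite directions: Slc7a11, the cystine importer, fell as given above, while Chac1, whose product breaks glutathione down, had 31, 23 and 33 counts in wild type and 56, 54 and 61 in Mc5r-/- and rose 2.13-fold (edgeR adjusted p = 0.00171). Gstt1, a theta-class transferase gene, had 29, 16 and 37 counts in wild type and 57, 54 and 56 in Mc5r-/- (2.21-fold higher, edgeR adjusted p = 0.00877). Msrb3, for a methionine sulfoxide reductase, rose 1.60-fold, whereas Msrb1 fell. These genes were chosen after their values were seen.

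Several related genes had single libraries far from the others of their genotype, as Gpx1 and Msra did. Maff, a small MAF gene, had 842, 847 and 329 counts in wild type and 854, 802 and 308 in Mc5r-/-, low in replicate 3 of each genotype. Gsk3b, for a kinase that marks NRF2 for degradation, had 438, 1104 and 1119 and 1005, 494 and 1027 counts, low in wild-type replicate 1 and Mc5r-/- replicate 2. Nfe2, for a relative of NRF2 in megakaryocytes and erythroid cells, had 1514, 1390 and 1594 and 569, 575 and 1486 counts, with Mc5r-/- replicate 3 at the wild-type level. Sesn3, a sestrin gene, had 129, 100 and 122 and 128, 622 and 178 counts, with Mc5r-/- replicate 2 high. None of these 4 passed (edgeR adjusted p between 0.200 and 0.958), and they too were chosen after their values were seen.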
